A study of Rattus norvegicus with 8 samples.

Results

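Chemical and electrical signalling between nerve cells rests on genes for ion channels, transmitter receptors and the machinery of vesicle release, and 46 such genes, taken by name, were described in cultured rat glia that were poor or rich in lipid droplets. They were chosen by the start of the gene name (for example Cacn, Kcn, Gria, Grin, Gabr, Syt, Snap, Stx, Shank) from the 1187 genes that the authors had called different between the groups. No name was repeated. By name, 13 belonged to ion channels, 11 to receptors, 9 to vesicle release, 2 to secretory granules and 7 to the postsynaptic scaffold, a class set by names that also takes in Psd and Dlg5. The remaining 4 were placed in none of these classes. Snapc2 and Htra1 share only the letters of a name, whereas Rab32 and Rab33b are Rab GTPases like Rab3c but are known from other organelles than synaptic vesicles. Every one of the 46 had passed the authors' threshold before it was chosen, so their levels and changes are given as a description.

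The cells came from hippocampi of newborn rats (stage P0), with no genotype or strain named in the labels. They were grown in Basal Eagle Media with 10% fetal bovine serum, the same for both groups, and used at 3 to 5 days in vitro. Nile red, a dye of neutral lipid, stained the droplets, and flow sorting gave 4 samples with low droplet content (LD-low) and 4 with high content (LD-high). The protocol calls the cultures astrocyte cultures, whereas the titles call the cells glia, and the labels do not say whether the 4 samples of a group came from separate animals or cultures, so the authors' p-values may measure technical spread. The authors' deposited table gives 1 level per gene and group, taken as FPKM (fragments scaled to transcript length and to the number of mapped fragments), together with a p and a q, the p adjusted for multiple testing. It holds no value per sample, so no level below has an SD, and the depth of each library is unknown.

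At a chemical synapse, voltage-gated calcium channels open when an action potential arrives, and calcium binds to synaptotagmin. SNARE proteins then fuse the vesicle with the membrane. On the other side, ionotropic receptors carry the current and scaffold proteins hold them in place. Glia express a part of these genes too, among them glutamate, GABA and ATP receptors, potassium channels and some granule proteins.

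Of the 46 genes, 38 fell and 8 rose in LD-high glia. Among all 12981 genes that the authors had tested, 9.14% were called, 4.22% as lower and 4.92% as higher. Since called genes alone could be chosen, these percentages give the setting of the counts and no support for them. The share of lower genes was 82.6% among the 46 and 44.7% among the other 1141 called genes. The median log2 change (LD-high over LD-low) was -1.93 over the 37 lower genes above 0 in both groups, beside -1.40 over all 528 such lower genes. Over the 8 higher genes it was 1.22, beside 1.13 over all 633 higher genes above 0 in both groups. The lower genes changed by more than 2-fold in 35 of 37 cases (94.6%), beside 407 of all 528 lower genes (77.1%). Most of the lower genes were weakly expressed, with a median level of 7.07 FPKM in LD-low and 1.17 FPKM in LD-high glia, and 17 of the 38 were under 1 FPKM in LD-high glia. At the stricter threshold of q below 0.01, which 1.98% of the tested genes passed as lower and 2.29% as higher, 21 of the 38 and 3 of the 8 were left. The largest q among the 46, that of Cacna1c, was 0.0403 in the authors' deposited table. Genes that did not pass the authors' threshold are not analysed here.

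**Figure D1:**
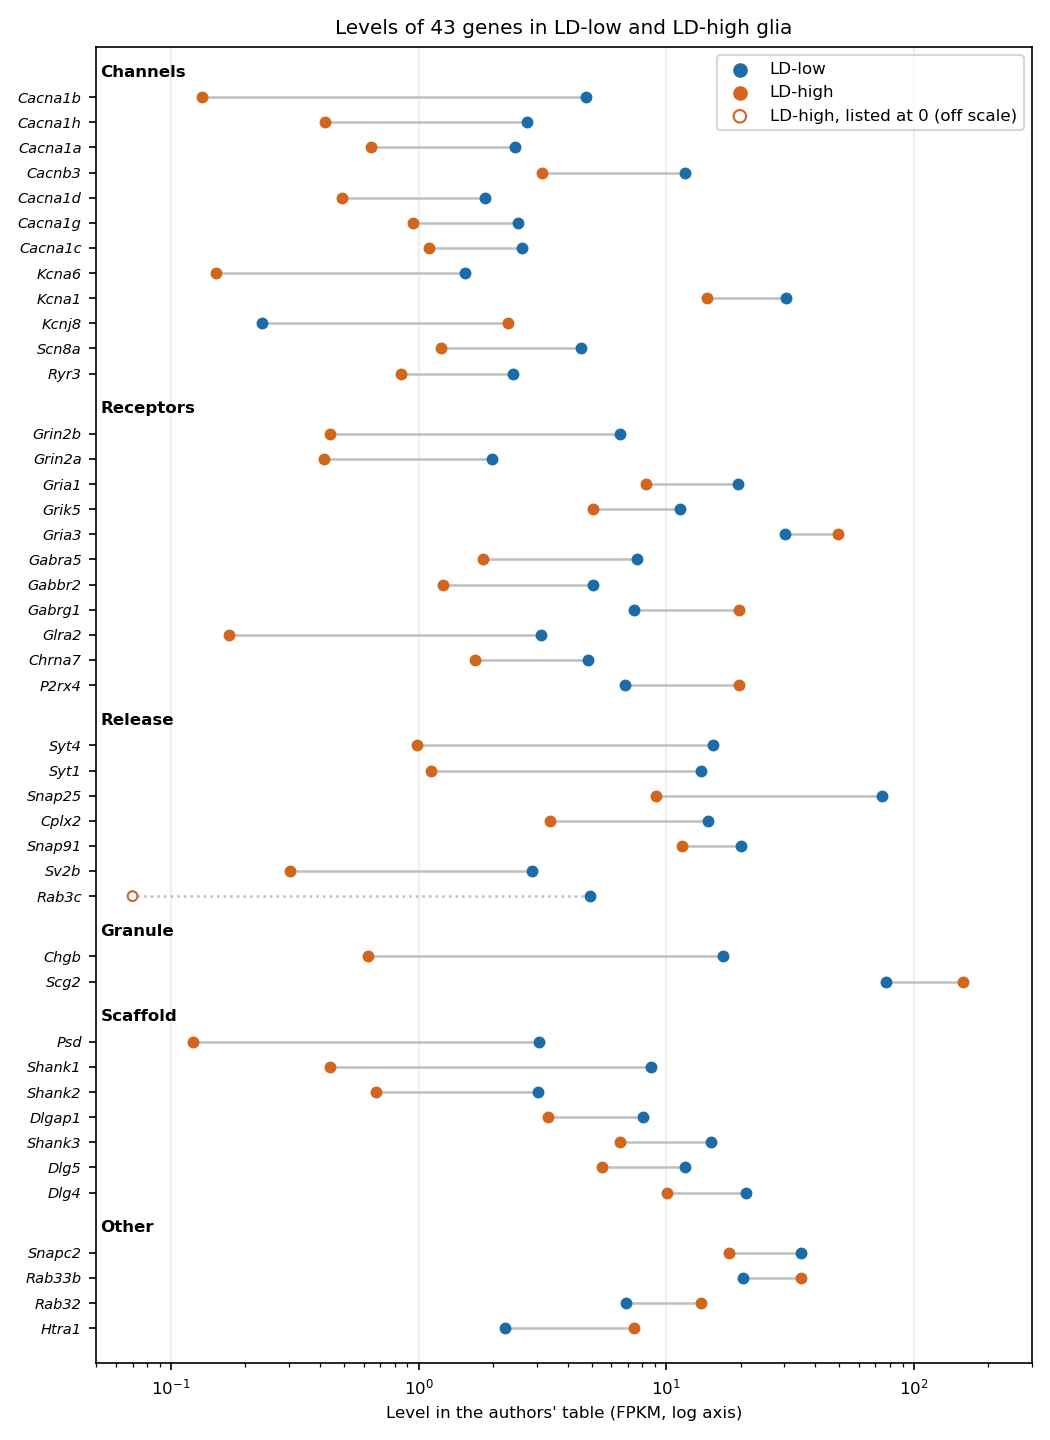
Level of 43 of the 46 genes in LD-low (blue) and LD-high glia (orange) on a log axis in FPKM, 1 authors' value per group and therefore without error bars, grouped by class. The 35 lower genes drawn have the orange point on the left, and the 8 higher genes have it on the right. Rab3c, listed at 0 in LD-high glia, has an open point near the left edge. That point stands for 0, which a log axis cannot show, and is no measured level.

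RefSeq's table for the GRCr8 assembly lists 438 protein-coding names that the same name starts would take, and 46 of them (10.5%) were called. Of all 23154 protein-coding names in that table, 1065 (4.60%) were called. How many of the 438 were tested is not known. The called names were unevenly spread over the families. They included 6 of the 10 Cacna1 names and all 3 Shank names. Potassium channels had 4 called among 95 names. None of the 4 Hcn, 9 Clcn, 23 Trpc, Trpm and Trpv, 8 Grm or 19 serotonin and dopamine receptor names was among the authors' called genes, which does not tell a gene that missed the threshold from an untested gene.

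Voltage-gated calcium channels formed the largest group of channels, and all 7 called genes fell. Of the 7, 6 encode the pore, and the summed level of these 6 went from 16.96 FPKM in LD-low to 3.74 FPKM in LD-high glia. Cacna1b, the pore of the N-type channel of nerve terminals (ENSRNOG00000004560, rn6 chromosome 3, 1740024 to 1924827), went from 4.76 to 0.134 FPKM, a 35.5-fold decrease. Its log2 change of -5.15 ranked 2 among the 528 lower genes above 0 in both groups. Cacna1a, the pore of the P/Q-type channel that also triggers release, went from 2.44 to 0.642 FPKM (log2 change -1.93). The terminal's N-type gene thus had the higher level of this pair in LD-low glia and the lower level in LD-high glia. The T-type pore genes Cacna1h and Cacna1g, which open near the resting potential, had log2 changes of -2.71 (2.75 to 0.421 FPKM) and -1.41 (2.52 to 0.951 FPKM). The L-type pore genes Cacna1d and Cacna1c had log2 changes of -1.92 (1.86 to 0.489 FPKM) and -1.25 (2.63 to 1.10 FPKM). Cacnb3, a cytoplasmic beta subunit that brings pores to the membrane, had the highest level of the 7 and went from 11.95 to 3.15 FPKM.

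The make-up of the 6 pore genes differed between the groups. Cacna1b was 28.1% of their summed level in LD-low and 3.59% in LD-high glia. Cacna1c, the channel of heart and smooth muscle as well as of neurons, was 15.5% in LD-low and 29.5% in LD-high glia, where it had the largest share. The q of the 7 calcium channel genes lay between 0.00187 and 0.0403 in the authors' deposited table.

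Of the 4 called potassium channel genes, 3 fell and 1 rose. The 3 that fell encode voltage-gated pores that repolarize axons and terminals. Kcna1 went from 30.4 to 14.7 FPKM, the highest level of any channel gene here in both groups, and Kcna6 from 1.53 to 0.152 FPKM. Kcna1 and Kcna6 lie 61.4 kb apart on rn6 chromosome 4 (159190804 to 159192526 and 159253934 to 159287193), and their log2 changes were -1.05 and -3.34. Kcnj8, an inward rectifier of ATP-sensitive channels known from pericytes and vascular muscle (ENSRNOG00000013463, chromosome 4, 176782498 to 176789304), was the only called channel gene that rose. Its level was 0.234 FPKM in LD-low and 2.29 FPKM in LD-high glia, a log2 change of 3.29. The authors' deposited table gives it a q of 0.0399, close to their threshold. In the same comparison 5 of 11 markers of fibroblast, meningeal and mural cells were called, all higher and none at 0. Of all protein-coding names, 4.60% were called. The other 6 markers, among them Pdgfrb, Acta2 and Tagln, were not among the called genes. The summed level of the 5 went from 71.6 to 222 FPKM. Of the 5, Col1a1 (39.8 to 113 FPKM) and Postn (14.6 to 55.0 FPKM) had the highest levels. Rgs5 went from 4.52 to 16.4 FPKM and Anpep from 0.397 to 3.84 FPKM. The part of these cells in the Kcnj8 level was not tested.

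Scn8a, a sodium channel of the axon initial segment, went from 4.52 to 1.23 FPKM (log2 change -1.88) and was the only called sodium channel gene. Ryr3, a channel that releases calcium from the endoplasmic reticulum, went from 2.40 to 0.847 FPKM (log2 change -1.50). In the authors' deposited table q was 0.00456 for Scn8a and 0.00187 for Ryr3. Over the 12 channel genes that fell, the median log2 change was -1.90.

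**Figure D2:**
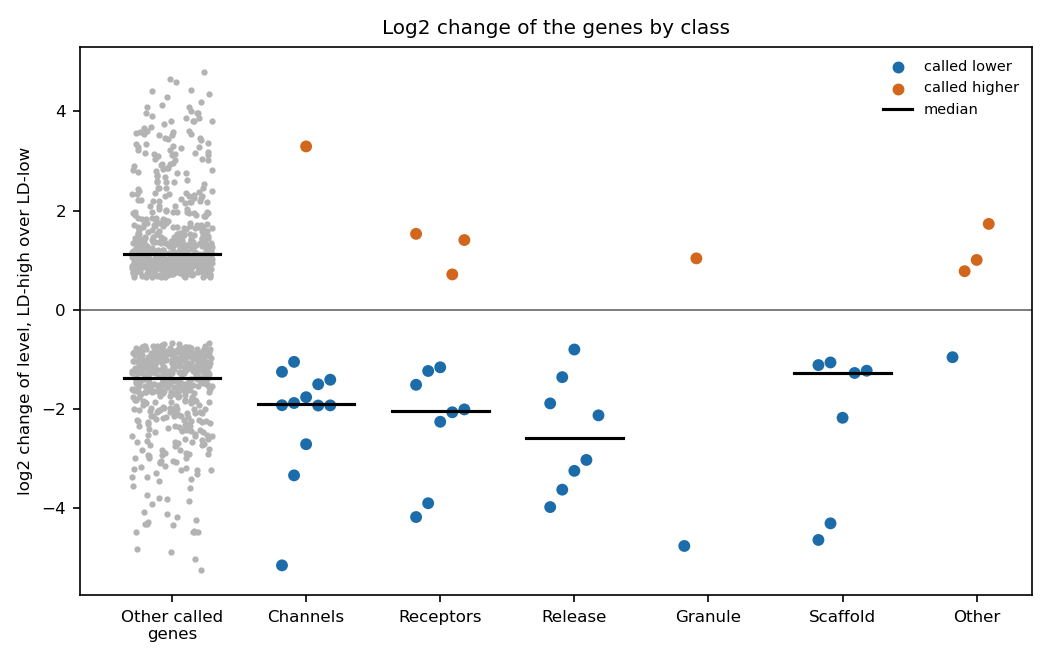
Log2 change of the level (LD-high over LD-low, from 1 authors' value per group) for the genes of each class, each point a gene, beside the other called genes in grey; black lines are medians of the lower genes of a class, and of lower and higher genes for the grey points. Among classes with several lower genes, release had the lowest median (-2.58) and the scaffold genes a median of -1.27, while Rab3c, which has no ratio, is not drawn.

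Receptor genes went both ways, 8 lower and 3 higher. Their summed level was 104 FPKM in LD-low and 108 FPKM in LD-high glia, and the 3 higher genes had the highest levels of the 11 in LD-high glia. The 8 lower receptor genes alone went from 59.9 to 19.2 FPKM in sum, and the 3 higher ones from 44.3 to 88.6 FPKM.

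Glutamate receptors had 4 lower genes and 1 higher gene. Grin2b, the NMDA receptor subunit of the young forebrain (ENSRNOG00000008766, chromosome 4, 169560387 to 169999873), went from 6.53 to 0.438 FPKM, a log2 change of -3.90. Grin2a, the subunit that becomes common in mature synapses, went from 1.98 to 0.415 FPKM (log2 change -2.26). Grin2b was therefore 3.30 times the level of Grin2a in LD-low glia and 1.06 times in LD-high glia, where both were under 1 FPKM. The AMPA receptor subunit Gria1, which carries fast excitatory current, went from 19.5 to 8.31 FPKM (log2 change -1.23). Gria3, another AMPA subunit (ENSRNOG00000007682, chromosome X, 127562660 to 127829753), was at 30.1 FPKM in LD-low and rose to 49.3 FPKM in LD-high glia, a log2 change of 0.71. Gria3 was 1.54 times the level of Gria1 in LD-low glia and 5.94 times in LD-high glia. The kainate receptor subunit Grik5 went from 11.3 to 5.07 FPKM. The q in the authors' deposited table was 0.00187 for Grin2b and 0.0328 for Gria3, with the other 3 between 0.0117 and 0.0311.

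Receptors of the inhibitory transmitters showed a like division. Gabra5, an alpha subunit of GABA-A receptors outside the synapse, went from 7.61 to 1.82 FPKM (log2 change -2.06). Gabbr2, the subunit through which GABA-B receptors signal, went from 5.06 to 1.26 FPKM (log2 change -2.01). Gabrg1, a gamma subunit of GABA-A receptors (ENSRNOG00000002360, chromosome 14, 39964588 to 40049354), was at 7.39 FPKM in LD-low and rose to 19.6 FPKM in LD-high glia, a log2 change of 1.41. Gabra5 and Gabrg1 were nearly level in LD-low glia, with a ratio of 1.03, whereas Gabrg1 was 10.8 times Gabra5 in LD-high glia. Glra2, the glycine receptor subunit of the fetal brain (ENSRNOG00000003313, chromosome X, 30612903 to 30831483), went from 3.11 to 0.172 FPKM (log2 change -4.18). In the authors' deposited table q was 0.00556 for Gabra5, 0.00187 for Gabbr2, 0.00640 for Gabrg1 and 0.0203 for Glra2.

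Chrna7, the subunit of a calcium-permeable nicotinic receptor, went from 4.81 to 1.69 FPKM and was the only called acetylcholine receptor gene. P2rx4, an ATP-gated channel known from microglia (ENSRNOG00000001300, chromosome 12, 39308025 to 39325673), was at 6.80 FPKM in LD-low and rose to 19.7 FPKM in LD-high glia, a log2 change of 1.53. It was the only called gene of the 16 purinergic receptor names, and its q was 0.00332 in the authors' deposited table. Of 20 microglia and macrophage markers 13 were called, all higher, beside 4.60% called of all protein-coding names. The summed level of the 13 went from 53.1 to 561 FPKM, 10.6-fold, with none listed at 0. The part of microglia in the rise of P2rx4 was not tested.

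**Figure D3:**
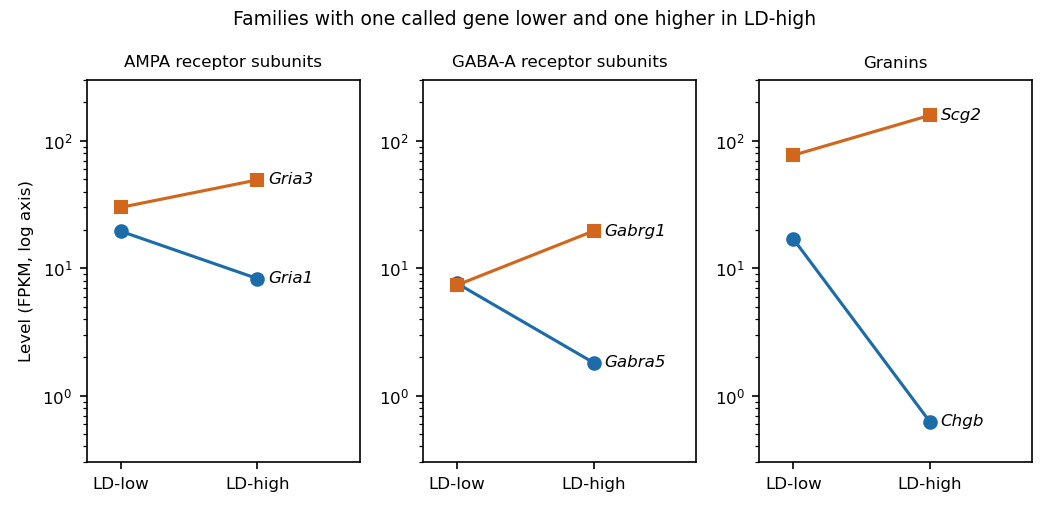
Levels in LD-low and LD-high glia (FPKM, log axis, 1 authors' value per group) for the families in which 1 called gene fell (blue) and another rose (orange). The lines part from similar levels for Gabra5 and Gabrg1 and diverge for Gria1 and Gria3 and for Chgb and Scg2.

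Genes of vesicle release fell without exception among the 9 called. Their summed level went from 191 to 41.6 FPKM, a 4.59-fold decrease, and 6 of the 9 had the smallest p in the authors' deposited table (5e-05). That p was shared by 12 of the 38 lower genes (31.6%) and by 168 of all 548 lower genes (30.7%). Snap25, the plasma membrane SNARE of nerve terminals (ENSRNOG00000006037, chromosome 3, 129599353 to 129788400), had the highest level of the 9 in LD-low glia. It went from 74.2 to 9.11 FPKM, a log2 change of -3.02. Cplx2, a complexin that clamps the SNARE bundle, went from 14.8 to 3.38 FPKM.

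The synaptotagmins fell by similar amounts. Syt1, the calcium sensor of fast release (ENSRNOG00000006426, chromosome 7, 50084060 to 50638798), went from 13.8 to 1.12 FPKM, and Syt4, which sits on dense-core and other vesicles, from 15.5 to 0.983 FPKM. Their log2 changes were -3.62 and -3.97. Sv2b, a vesicle glycoprotein, went from 2.88 to 0.303 FPKM (log2 change -3.24). Rab3c, a small GTPase of vesicles, was at 4.92 FPKM in LD-low glia and is listed at 0 in LD-high glia. Its fold is not computed, because a level of 0 gives no ratio, and with 1 value per group the spread behind that 0 is unknown. Snap91, a clathrin assembly protein of vesicle recycling and no SNARE, had the smallest decrease of the 46 genes, from 20.1 to 11.5 FPKM (log2 change -0.80). In the authors' deposited table q was 0.00187 for Syt1, Syt4, Snap25 and Rab3c, 0.00332 for Cplx2, 0.0283 for Sv2b and 0.0347 for Snap91.

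The pair of called granin genes, whose products fill dense-core granules with peptides, went in opposite directions. Chgb, chromogranin B (ENSRNOG00000021269, chromosome 3, 125428260 to 125441594), went from 16.98 to 0.627 FPKM, a 27.1-fold decrease and a log2 change of -4.76. Scg2, secretogranin II (ENSRNOG00000015055, chromosome 9, 85237458 to 85243001), was at 77.1 FPKM in LD-low and rose to 158 FPKM in LD-high glia, a log2 change of 1.04. The authors' deposited table gives q values of 0.00456 for Chgb and 0.00187 for Scg2. Scg2 had the highest level of all 46 genes in both groups. It was 4.54 times the level of Chgb in LD-low and 253 times in LD-high glia.

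Promoters were read from RefSeq's table for GRCr8, which held 32 of the 46 genes. The 250 bases before the annotated start are shown for Chgb and Scg2, the granins that parted, for Glra2, the receptor gene with the largest decrease, and for Rab3c, the gene listed at 0. Capitals mark matches, on either strand, to the left and right parts of the RE1 element of the repressor REST (TTCAGCACC and GGACAGC, the left part also as TTCAGCA), to the cAMP response element (TGACGTCA) and to a PU.1 site (GAGGAAGT). The stretches lie at chr9:88256867-88257116 on the minus strand (Scg2), chr3:140496462-140496711 on the plus strand (Chgb), chrX:32651937-32652186 on the plus strand (Glra2) and chr2:43575944-43576193 on the minus strand (Rab3c).
Scg2: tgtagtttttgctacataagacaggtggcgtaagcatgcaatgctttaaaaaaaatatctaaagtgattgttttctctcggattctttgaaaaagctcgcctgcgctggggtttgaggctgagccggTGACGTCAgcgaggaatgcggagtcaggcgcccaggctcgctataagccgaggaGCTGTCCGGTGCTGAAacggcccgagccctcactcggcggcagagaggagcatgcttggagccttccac
Chgb: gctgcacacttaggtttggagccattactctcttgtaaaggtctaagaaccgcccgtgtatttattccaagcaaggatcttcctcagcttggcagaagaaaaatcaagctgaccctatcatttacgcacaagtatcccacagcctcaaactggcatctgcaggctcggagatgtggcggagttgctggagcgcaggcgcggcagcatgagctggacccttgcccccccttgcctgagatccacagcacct
Glra2: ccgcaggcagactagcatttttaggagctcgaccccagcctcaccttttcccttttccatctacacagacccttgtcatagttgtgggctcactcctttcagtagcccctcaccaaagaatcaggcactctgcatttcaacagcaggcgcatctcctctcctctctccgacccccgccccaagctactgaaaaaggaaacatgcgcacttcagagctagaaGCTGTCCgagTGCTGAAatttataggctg
Rab3c: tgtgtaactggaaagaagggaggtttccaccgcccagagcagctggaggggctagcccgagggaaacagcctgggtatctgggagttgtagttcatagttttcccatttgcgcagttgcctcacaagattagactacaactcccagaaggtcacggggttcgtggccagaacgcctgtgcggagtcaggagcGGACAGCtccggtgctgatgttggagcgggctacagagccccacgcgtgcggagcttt

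The Scg2 stretch held both RE1 parts side by side, without overlap, and a cAMP response element that begins 123 bases before the start. None of the 4 motifs matched in the 250 bases of Chgb shown. In Glra2 a right part stood 3 bases from TTCAGCA, both on the minus strand of the sequence shown. The spacing of the parts was not compared with that of known RE1 elements, and binding of REST was not tested. In the whole 300-base windows, GGACAGC matched in 7 of the 32 genes (21.9%: Dlg5, Dlgap1, Glra2, Htra1, Rab3c, Ryr3 and Scg2) and in 7.23% of all 27457 genes of the table. TTCAGCACC matched in Scg2 alone of the 32 and in 0.404% of all genes, and TGACGTCA in Scg2 alone and in 2.00% of all genes. GAGGAAGT matched in Rab32 and Shank3, 2 of the 32 (6.25%), beside 2.62% of all genes. The ordered pair TTCAGCA and GGACAGC at most 6 bases apart, a search added after the sequences were read, matched in Scg2 and Glra2 and in 9 of all 27457 genes. As this pattern was set with the sequences known, its matches in Scg2 and Glra2 are a description and no evidence about the set. The genes with a match include some that rose and some that fell. The median GC content was 63.5% for the 32 genes and 52.3% for all genes, but also 61.6% for the 839 called genes in the table and 64.3% for the lower ones among them. The shares of motif matches among the 839 called genes were not computed.

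The scaffold class, which by name takes in an exchange factor and a polarity protein too, fell in all 7 called cases, with a median log2 change of -1.27. All 3 Shank genes, the master scaffolds of the postsynaptic density, were among them. Shank1 (ENSRNOG00000019207, chromosome 1, 100297152 to 100344377) went from 8.70 to 0.441 FPKM, Shank2 from 3.03 to 0.672 FPKM and Shank3 from 15.2 to 6.51 FPKM. The Shank genes kept different shares of their level, with log2 changes of -4.30, -2.18 and -1.23. Shank3 made up 56.5% of the family's summed level in LD-low and 85.4% in LD-high glia. Psd, an exchange factor for the small GTPase Arf in the postsynaptic density, went from 3.06 to 0.123 FPKM (log2 change -4.64). Dlg4, which anchors NMDA receptors, went from 20.95 to 10.05 FPKM, and Dlgap1, which ties Dlg4 to Shank proteins, from 8.07 to 3.34 FPKM. Dlg5, a relative of Dlg4 that is known from cell polarity, went from 11.9 to 5.52 FPKM. The q of the 7 genes in the authors' deposited table lay between 0.00187 (Shank1) and 0.0288 (Dlgap1).

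Among the 4 genes outside these classes, Snapc2, a subunit of the complex that transcribes small nuclear RNA, went from 34.9 to 17.997 FPKM. The other 3 rose. Htra1, a secreted serine protease, went from 2.24 to 7.43 FPKM, Rab32, a GTPase of lysosome-related organelles, from 6.86 to 13.8 FPKM, and Rab33b, a GTPase of the Golgi, from 20.4 to 35.0 FPKM. Without these 4 genes the count was 37 lower and 5 higher.

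Synaptic genes outside the name starts were taken from lists of 71 symbols, of which 12 were called, 11 lower and 1 higher. Beside these counts, 4.60% of all protein-coding names were called, and how many of the 71 were tested is not known. Of 35 symbols for vesicles, release and the active zone 7 were called, all lower. Bsn and Pclo, the giant proteins of the active zone, went from 3.98 to 0.200 FPKM and from 9.61 to 2.10 FPKM, and Ppfia2, a liprin of the same zone, from 7.12 to 0.760 FPKM. Nsg2, an endosomal protein of neurons, had the highest level of the 7 and went from 223 to 66.2 FPKM. Pcsk2, which cleaves peptide precursors in granules and was singled out after its values were seen, is listed at 0 in LD-high glia beside 2.76 FPKM in LD-low glia. Of 22 symbols for the postsynaptic density and synaptic adhesion 3 were called, all lower. Camk2b, a calcium-dependent kinase, and Nlgn2, the neuroligin of inhibitory synapses, had log2 changes of -2.69 and -1.25. Of 14 symbols for transmitter synthesis and loading 2 were called. Slc32a1, which loads GABA into vesicles, was at 1.42 FPKM in LD-low glia and is listed at 0 in LD-high glia, whereas Slc18a2, which loads monoamines, rose, with 7.34 FPKM in LD-low and 14.9 FPKM in LD-high glia.

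The authors' deposited tables of gene ontology terms hold 104 terms for the lower and 227 for the higher genes. Terms that name synapses or transmission numbered 4 for the lower genes, the smallest p being that of "modulation of synaptic transmission" (3.15e-05 after the authors' Bonferroni correction in their deposited table). The other terms name the assembly, structure or activity of synapses, with corrected p between 0.0285 and 0.0384 in that deposited table. No such term stood among those for the higher genes. These terms were computed by the authors on the same called genes and are no independent evidence.

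Markers of neurons moved with the 38 lower genes. The counts of called markers stand beside 4.60% called of all protein-coding names. Of 22 neuron symbols outside the name starts, 12 were called, all lower, with a summed level of 637 FPKM in LD-low and 181 FPKM in LD-high glia. Their median log2 change was -3.54, and none is listed at 0. Neurod1, a transcription factor of young neurons, went from 56.4 to 1.49 FPKM, and Dcx, a microtubule protein of migrating neurons, from 99.7 to 3.39 FPKM. These had the largest decreases of the 12. The neuron markers with the highest levels in LD-high glia fell less, Map2 from 161 to 80.7 FPKM (log2 change -0.996) and Gap43 from 111 to 62.1 FPKM (log2 change -0.84). Of 13 oligodendrocyte lineage symbols 2 were called, both lower, with a summed level of 25.9 FPKM in LD-low and 4.39 FPKM in LD-high glia. They were Pdgfra and Bcas1. In sorted bulk samples, fewer cells of a type and less RNA per cell cannot be told apart, and the part of these cells in the levels of the 38 genes was not tested. Other markers moved with the 8 higher genes. Of 15 astrocyte symbols 2 were called, Acsbg1 and Slc4a4, both higher (29.8 to 54.1 FPKM in sum), and Gfap was not among the called genes. Endothelial markers had 3 of 10 called, all higher (12.96 to 41.0 FPKM in sum). The part of each of these cell types in the rise of Gria3, Gabrg1 and Scg2 was not tested.

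**Figure D4:**
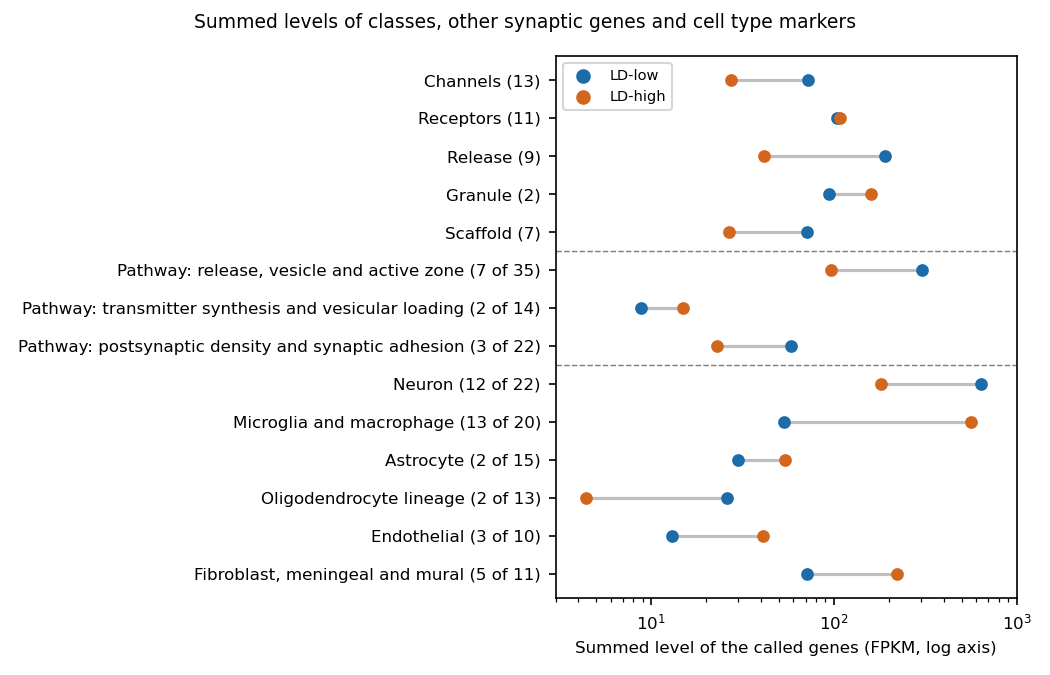
Summed level (FPKM, log axis) of the called genes of each class, of 3 lists of other synaptic genes and of 6 lists of cell type markers, in LD-low (blue) and LD-high glia (orange), with the number of genes summed in brackets and no error bars because there is 1 authors' value per group. Channels, release and scaffold genes shifted left as the neuron markers did, and the receptor sum hardly moved (104 and 108 FPKM). The granule sum shifted right (94.1 to 159 FPKM), as did that of transmitter synthesis and loading (8.77 to 14.9 FPKM). Within these sums Scg2 and Slc18a2 rose, while Chgb and Slc32a1 fell. The microglia markers shifted farthest to the right.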

How the data were processed

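RNA of 8 samples (4 LD-low, 4 LD-high, grouped by title) was turned into amplified cDNA (Ovation RNA-seq v2), per the labels' protocols. Bowtie2, Cuffdiff and rn6 are named in the submitters' processing notes, with no versions. The gene annotation used is not given in the sources used here. Per gene and group the authors deposited 1 level, taken as FPKM, Cuffdiff's unit, since the file headers name none. The deposited p-value and q-value of each gene are the authors' own, and the gene ontology p-values are theirs, from PANTHER, per the file headers. The deposited columns hold no value per sample, so no test between samples was run here, and depth is unknown.

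Each log2 change is LD-high over LD-low, with no pseudocount, where both levels were above 0. The number of tests, 12981, was recovered from p, q and rank, a step tested on simulated data. Loci are in rn6, with starts raised by 1. Promoters and gene names are RefSeq's for GRCr8, and all 46 symbols were found among those names. Python 3.11.15 and pandas 2.3.3 were used. Of the 46 genes 43 are named and the rest are not reported here by name. Of other lists, up to 4 called genes with the largest change are named. Map2 and Gap43 were named in addition, for their levels, after their values were seen. The genes, the 9 lists and the motifs were chosen with earlier results of these data known. Alternatives were a stricter q, minimum changes and levels, pseudocounts, and leaving out genes at 0 or outside the classes.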

Additional observations from a re-analysis of the deposited data

How the results depend on the processing

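The counts of 38 lower and 8 higher genes changed with the filter applied: 21 lower and 3 higher genes passed q below 0.01, and 21 lower genes had at least 5 FPKM in the higher group. Of the 12 lower channel genes 7 passed q below 0.01 and 2 the 5 FPKM filter, of the 8 lower receptor genes 3 and 5, of the 9 release genes 7 and 7, and of the 7 scaffold genes 3 and 5. Without the 4 genes outside the classes there were 5 higher genes. The median log2 change of the lower genes was -2.10 at q below 0.01, beside -1.93. With a pseudocount of 1 it was -1.27, both over all 38 genes with Rab3c and, chosen after seeing the data, over the 37 genes without it. That of the higher genes was 1.41 at q below 0.01 and also without the 4 genes outside the classes, beside 1.22. All 45 genes above 0 in both groups kept their direction with pseudocounts of 0.1 and 1, but 4 and 17 of them moved by more than 1.5-fold. The change of Cacna1b moved most with a pseudocount of 1, from -5.15 to -2.35, because its level in LD-high glia is low. No paired analysis was possible because the deposited tables hold 1 level per group and no value per sample. For the same reason no sample could be left out. No error of a level is known apart from the authors' p and q.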

Other observations

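The loci of the lower genes were long. Their median span in rn6 was 111 kb, beside 40.3 kb over all 548 lower genes and 26.02 kb over all 639 higher genes. The 8 higher genes had a median span of 16.7 kb. The loci can take in introns of any length and say nothing of transcript length.

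The 46 genes lay on 17 chromosomes, and 11 of them on chromosome 1, for which the share of all genes was not computed. No locus of the 46 overlapped that of another called gene.

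Among the 50 largest decreases with a level above 0 in both groups, 10 belonged to the 46 genes: Cacna1b, Chgb, Psd, Shank1, Glra2, Syt4, Grin2b, Syt1, Kcna6 and Sv2b. These were 27.0% of the 37 lower genes of the set above 0 in both groups, beside 9.47% of all 528 such lower genes. Several ranks rest on very low levels in LD-high glia, such as 0.123 FPKM for Psd and 0.134 FPKM for Cacna1b.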
